A study of Drosophila melanogaster with 3 samples.

Results

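The genes described here encode the proteins of the cytoplasmic ribosome of Drosophila melanogaster. They were taken by symbol from the Ensembl dm6 gene models: every protein-coding gene whose name begins with RpL or RpS and a digit. This rule gave 88 of 13945 protein-coding genes, of which 50 named RpL belong to the large subunit and 38 named RpS to the small subunit. The rule uses no measured value. Of the 3612 regions that the authors kept after thresholding, 55 had a summit at one of these genes.

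All samples came from a single group, whole embryos of both sexes aged 0 to 14 h from a line that stably carries an insertion with GFP joined to the C terminus of sc, and there were 3 biological replicates. The Scute-GFP protein was pulled down with an antibody against GFP after sonication to 200 to 800 bp, and the DNA was sequenced (ChIP-seq, which maps where a protein sits on chromatin). Every cell type of the embryo was pooled, so a region cannot be placed in a tissue. No list from untagged embryos was analysed here. The labels do not say how the inserted gene is driven or whether the resident sc gene was still active.

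A ribosome is built from ribosomal RNA and one copy each of nearly all of its proteins, so their genes are transcribed strongly and together in growing cells. Flies with a single working copy of many of these genes show the Minute phenotype, a delay in growth with short bristles. In flies most of these genes start transcription at a pyrimidine-rich initiator called TCT, in place of the usual initiator and without a need for a TATA box. Many also carry the DRE, the site of the factor Dref, or the core of Ohler motif 1, the site of M1BP. Scute is a proneural bHLH factor that pairs with Daughterless and reads E-boxes. It is best known for starting sensory organs and neuroblasts and for counting the X chromosome in sex determination.

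The starts of a few genes are printed here because the summits lay on them and because they show the letters that most of the set shares. Each run covers 80 bases before and 20 bases from the 5′ end of the gene model on the gene strand, taken from the Release 6 genome (dm6). Capitals mark the TCT initiator, searched as TCTTT or CCTTT, where its C fell within 5 bp of that 5′ end. The first 4 belong to genes among the strongest in rank.
RpS27, chr3R:25247495-25247594, minus strand: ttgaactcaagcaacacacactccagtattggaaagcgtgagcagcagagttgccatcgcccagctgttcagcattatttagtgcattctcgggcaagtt
RpL28, chr3L:3222941-3223040, minus strand: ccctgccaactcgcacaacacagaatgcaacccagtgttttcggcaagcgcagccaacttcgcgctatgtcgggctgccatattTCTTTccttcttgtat
RpL23A, chr3L:1668635-1668734, minus strand: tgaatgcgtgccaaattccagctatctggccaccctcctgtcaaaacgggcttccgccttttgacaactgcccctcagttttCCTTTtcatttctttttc
RpL34b, chr3R:9401207-9401306, minus strand: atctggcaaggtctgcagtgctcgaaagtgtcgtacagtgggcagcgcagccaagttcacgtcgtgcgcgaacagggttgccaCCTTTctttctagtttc
In RpS27 the run holds no capitals, because its TCT initiator lay at another annotated start of the gene.

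A gene was counted when the summit of a region fell in its body or up to 2 kb upstream, here called its territory. By that measure 56 of the 88 genes had a thresholded region, which is 63.6% (95% Wilson interval 53.2 to 72.9%). The background over all protein-coding genes was 20.5%. Ribosomal protein genes are short, with a median territory of 3326 bp against 4166 bp over all genes, and among genes with a territory no longer than the longest of theirs the background was 14.3%. The same count can be made in each replicate from its own 3612 regions of highest signal, the signal being the authors' value for each region. It gave 59, 57 and 53 genes in replicates 1, 2 and 3, or 67.0%, 64.8% and 60.2%. The backgrounds in those lists were 21.6%, 20.8% and 20.2%. Every replicate therefore showed the same order, with a gap of 43.2 ± 2.80 percentage points (SD, n = 3). An exact two-sided sign-flip permutation over the replicates gave p = 0.25 (0.25 after Benjamini-Hochberg adjustment over 3 tests), which is the smallest p that 3 replicates allow.

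The thresholded regions at these genes mostly recurred in each library. The best thresholded region recurred in all 3 lists of 3612 for 47 of the 56 genes, in 2 lists for 7 genes and in 1 list for 2 genes. The thresholded list was itself made from all 3 replicates by irreproducible discovery rate, which favours regions that recur. This recurrence was therefore partly built in, and its share over all 3612 regions was not computed. In the 55 genes whose summit could be matched in every replicate, the summits lay within a median span of 49.0 bp, with a range of 5 to 264 bp. That span is shorter than the median width of the regions at these promoters, 291 bp. Summits were matched only within 250 bp of the thresholded summit, which limited the span in advance. RpL24 had the tightest span and RpS12, a sensor of ribosomal protein dosage in cell competition, the widest. RpS12 held 2 thresholded summits, at -219 and -17 bp, and its replicate summits lay at -160, 20 and -244 bp.

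**Figure D1:**
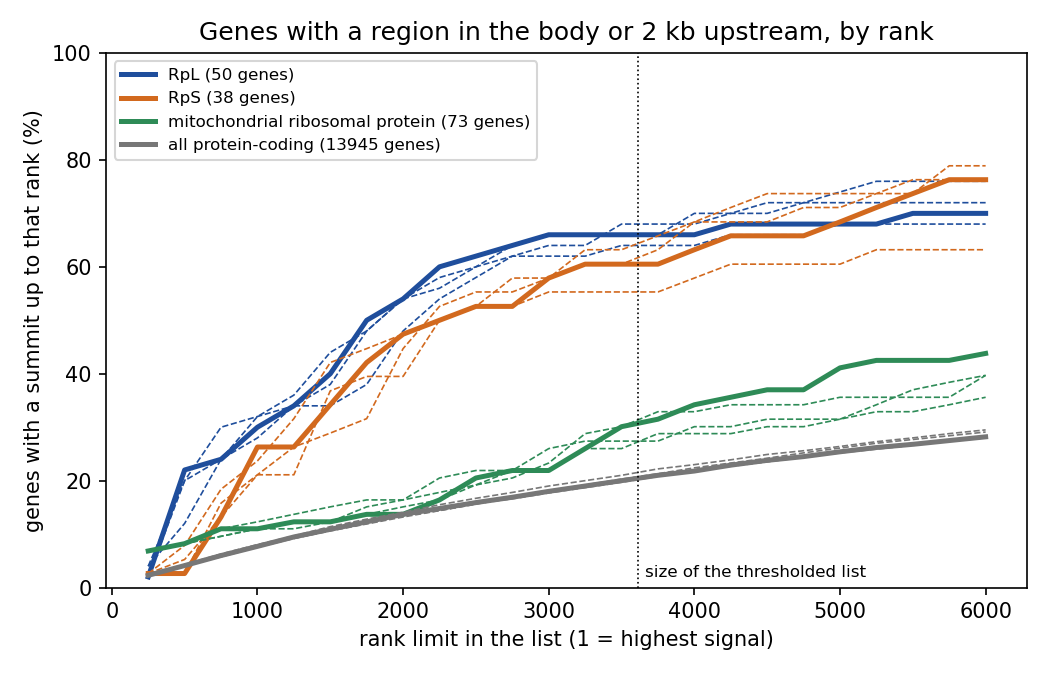
Share of genes (percent) with a summit in the body or 2 kb upstream, counted down each list from the highest signal (rank limit on the x axis); thick lines are the pooled list, dashed lines the 3 replicates, and the dotted line marks the 3612 regions of the thresholded list. At that line the pooled curves stand at 66.0% for RpL and 60.5% for RpS genes, at 30.1% for mitochondrial ribosomal protein genes and at 20.5% for all protein-coding genes.

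The highest ranks of the set were held by RpS27, RpL7 and RpL28. The region at RpS27, which encodes a zinc-finger protein of the small subunit, ranked 92, 119 and 220 in replicates 1, 2 and 3. Its signal was 273, 328 and 219, in lists whose highest signal was 712, 908 and 759. At RpL7 the region ranked 132, 167 and 235. RpL28 ranked 188, 418 and 358. These 3 genes stayed within the highest 500 regions of every replicate. RpL28 lies back to back with eIF1, an initiation factor that helps choose the start codon, whose start is 381 bp away, and both genes hold the same region in their territory.

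Most of the genes that followed encode large subunit proteins. RpL41, which encodes the smallest protein of the ribosome, ranked 448, 253 and 528. RpL19 ranked 426, 358 and 535. RpL24 was the steadiest of this group. It ranked 386, 463 and 476. RpL23A, whose protein sits at the mouth of the exit tunnel where the new chain leaves the ribosome, ranked 583, 517 and 345. RpL4, whose protein reaches into the wall of that tunnel, ranked 484, 413 and 565. Both copies of RpL34 were among them, and they lie at separate places on chromosome arm 3R. RpL34b ranked 497, 412 and 536, and RpL34a ranked 419, 637 and 439. RpL14, a Minute gene, ranked 526, 296 and 689. RpL13A ranked 486, 409 and 793. Small subunit genes entered this group with RpS25, at ranks 532, 450 and 545, and RpS28b, at ranks 671, 631 and 467. For RpS28b the rank in replicate 2 came from a summit at -760 bp. The order within the group is not firm, because the ranks of neighbours overlapped between replicates.

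Thus 12 of the 15 genes with the lowest mean rank were RpL genes, and 3 were RpS genes. Among the highest 500 regions of the pooled list, a limit chosen after the ranks were seen, 11 RpL genes (22.0%) and 1 RpS gene (2.63%) had a summit, against a background of 4.12%. The replicates gave 10, 10 and 6 RpL genes and 1, 3 and 2 RpS genes, with backgrounds of 4.31%, 4.11% and 4.20%. Higher up, the shares were close to the background. Among the highest 250 regions of the pooled list they were 2% for RpL and 2.63% for RpS genes, against 2.29%. In replicates 1, 2 and 3 they were 4%, 2% and 4% for RpL genes and 2.63% each time for RpS genes. The backgrounds there were 2.29%, 2.25% and 2.26%. Mitochondrial ribosomal protein genes stood at 6.85% in each of these lists, and at 8.22% among the highest 500. RpS genes caught up further down: among the highest 1000 regions of the pooled list there were 15 RpL and 10 RpS genes.

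Over the whole thresholded set the 2 subunits stood close together. A region was present at 33 of 50 RpL genes (66.0%, interval 52.2 to 77.6%) and at 23 of 38 RpS genes (60.5%, interval 44.7 to 74.4%). Per replicate the shares were 68.0%, 66.0% and 64.0% for RpL genes and 65.8%, 63.2% and 55.3% for RpS genes. RpL genes were ahead in all 3 replicates, by 4.60 ± 3.60 percentage points (SD, n = 3; exact sign-flip permutation p = 0.25, adjusted 0.25). Each share lies inside the interval of the other. It also turned around with a looser criterion. With all regions of a q-value under 5% in place of the highest 3612, it was -2.14 points, and in the pooled list 72.0% of RpL and 78.9% of RpS genes then had a region, against a background of 29.6%.

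**Figure D2:**
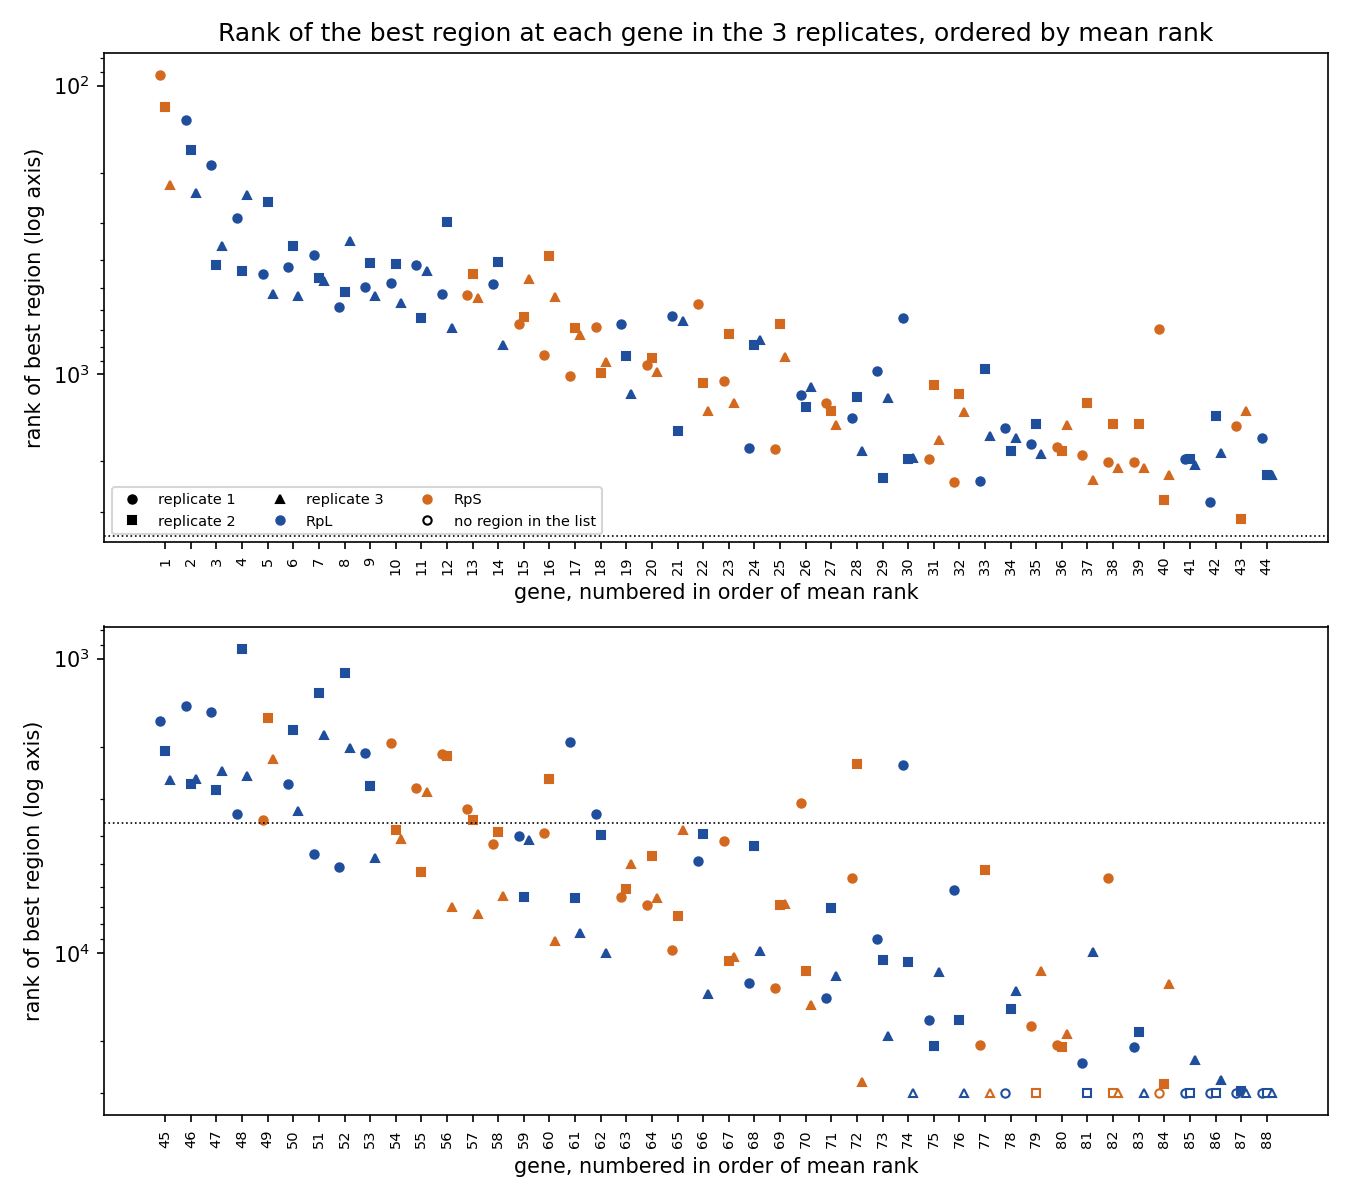
Rank of the best region in the territory of each of the 88 genes (log axis, highest signal at the top) in replicates 1, 2 and 3, with genes numbered in order of mean rank and the 44 lowest means in the upper panel. RpS27 stands first at 92, 119 and 220; open symbols at the bottom stand for replicates with no region, and the dotted line marks rank 3612.

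At these genes the summit sat on the start of transcription. The median position over the 56 genes was 31 bp upstream of the 5′ end (-31.0 bp, quartiles -64.8 and 19.2 bp), and 46 summits (82.1%) lay within 100 bp of it. With the gene body alone as territory, 18 genes were counted, against a background of 9.24%. Of the 56, 38 summits were upstream and 18 at or inside the start. Within 100 bp of the 5′ end, 49 of all 88 genes (55.7%) had a thresholded summit, against a background of 2.59%. Each replicate showed the same closeness: 72.9%, 80.7% and 81.1% of the genes with a high region had its summit within 100 bp. Over all protein-coding genes with a high region, those shares were 13.6%, 12.3% and 11.1%.

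The 4 genes given here were tighter between replicates than the median span of 49.0 bp over the set, whose widest span was 264 bp. At RpS27 the summits of replicates 1, 2 and 3 lay at 8, -3 and -1 bp from the 5′ end. Those of RpL11, whose protein joins RpL5 and the 5S RNA before entering the ribosome, lay at -25, -19 and -24 bp. RpL7 had its summits inside the gene, at 32, 44 and 58 bp. RpL34a had them further out, at -111, -107 and -123 bp. The positions of these 4 genes did not overlap between genes in any replicate. The replicates of RpL11, RpL7 and RpL34a kept to one side of the start, and those of RpS27 straddled it.

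**Figure D3:**
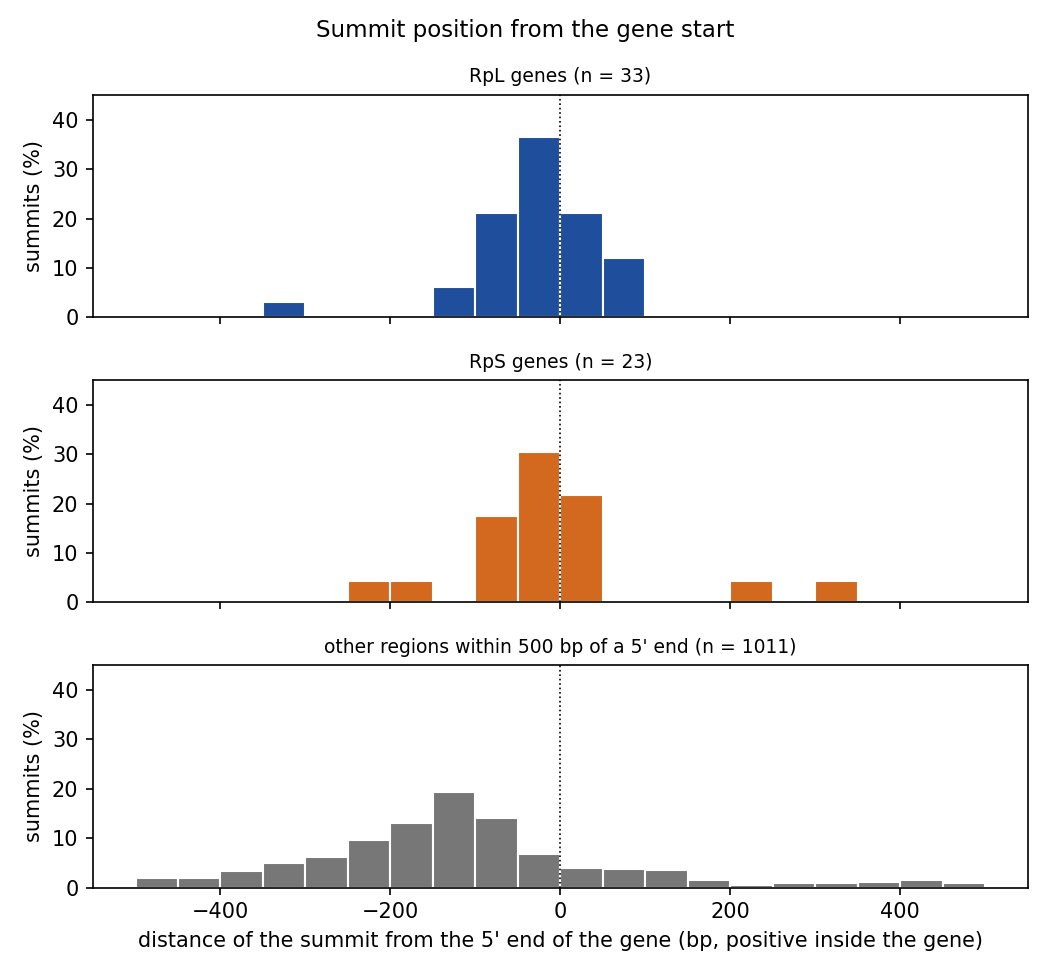
Share of thresholded summits (percent) in bins of 50 bp by distance from the 5′ end, negative upstream, for 33 RpL genes, 23 RpS genes and 1011 other regions within 500 bp of a 5′ end; 3 RpS summits beyond 500 bp fall outside the plot. The RpL and RpS bars are highest in the bin from -50 to 0 bp, at 36.4% and 30.4%, and the other regions have their median at -125 bp.

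The other promoter regions of the series, meaning thresholded regions with a summit within 500 bp of the 5′ end of a gene model, lay further upstream. There were 1011 of them, with a median of -125 bp (quartiles -210 and -47.5 bp) and 28.5% within 100 bp of the nearest 5′ end. The 53 regions at ribosomal protein promoters had a median of -27 bp (quartiles -55 and 23 bp) and 86.8% within 100 bp. The latter were narrower, with a median width of 291 bp against 430 bp, and about as strong, with a median pooled signal of 280 against 249. Many of the weaker regions at ribosomal protein genes were exactly 430 bp wide, which was also the median region width in general. What set the widths was not tested. The sequence of the 53 regions was richer in G and C, at 42.6 ± 6.61% over the 201 bp around the summit (SD over regions) against 33.7 ± 7.04% over 1011. The part of base composition in these results was not tested.

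The gap in position between RpL and RpS genes depended on the measure. The median position per replicate was -45, -9 and -23 bp for RpL and -56, -29 and -42 bp for RpS genes. The RpL median was nearer the start in each replicate, by 16.7 ± 4.93 bp (SD, n = 3; exact sign-flip permutation p = 0.25, adjusted 0.25). This sign reversed to -12.7 bp with summits in gene bodies only and to -9.83 bp with the highest 1806 regions of each replicate in place of 3612. In the thresholded list 30 of 33 RpL summits (90.9%) and 16 of 23 RpS summits (69.6%) lay within 100 bp. The shares in the replicates were 82.4%, 87.9% and 90.6% for RpL and 60.0%, 70.8% and 66.7% for RpS genes, so RpL genes had the higher share in all 3.

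The 3 genes with a best summit beyond 500 bp were all RpS genes, and each summit was nearer another start. At RpS3, whose protein lines the channel where messenger RNA enters, the best summit lay 1694 bp upstream (-1694 bp) and 555 bp from the start of Sec13. For RpS19b it lay at -882 bp, 500 bp from the start of CG5854. For RpS14b it lay at -1211 bp, on the start of the neighbouring RpS14a. RpS14a and RpS14b form a tandem pair on X. RpS14b also had a summit of its own at -79 bp, at rank 3356 of the thresholded list, so both copies had a region at the start.

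A few more genes had summits off the 5′ end of the gene model or nearer to a neighbour. RpL23 had its best summit at -319 bp, 237 bp from CG13531, and a second at -17 bp with nearly the same rank, 2300 against 2332. RpS20 had its summit at -187 bp, 146 bp from CG17271. RpS16 had the best summit furthest inside a gene, at 319 bp, and its replicates placed it at 253, 329 and 321 bp. That summit lay at -63 bp from another annotated start of RpS16. RpS12 had summits at -219 and -17 bp. In all, 9 genes held more than 1 thresholded summit, and 5 had a best summit nearer to another gene.

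Neighbouring genes matter for this set because 32 of the 88 (36.4%) share a divergent promoter. In such a promoter the start of another protein-coding gene lies on the opposite strand within 500 bp upstream. Among all protein-coding genes the same held for 3483 of 13945, so divergent promoters are not particular to this set. Of these 32, 26 (81.2%, interval 64.7 to 91.1%) had a thresholded region, and of the other 56, 30 did (53.6%, interval 40.7 to 66.0%). Over all protein-coding genes the corresponding backgrounds were 29.3% and 17.6%. Ribosomal protein genes were thus above the background both with and without a divergent partner. RpL13 shares its promoter with Dref, the gene of the DRE-binding factor, 84 bp away, and the summits lay at -67, -9 and -12 bp from the RpL13 start. RpL36 is paired with Mybbp1A, a gene of the ribosome biogenesis list, 290 bp away, and its summits lay at -4, 2 and -17 bp. RpL7 and Ripalpha start 30 bp apart. Where starts lie this close, a single region can cover both, and the gene it belongs to cannot be told apart.

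Some of these genes have one or more relatives of the same name with a separate promoter. By symbol alone, 25 of the 88 genes fell into 12 families, and 13 of the 25 had a thresholded region (52.0%), against 43 of 63 single genes (68.3%). In 7 families exactly 1 copy had a region, in 3 families 2 copies did and in 2 families none did. Reads that match both copies could have been lost or shared, depending on a mapping step not given in the sources used here.

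The families with 1 region split widely in rank. The starts of RpS5a and RpS5b, RpS28a and RpS28b, and RpS19a and RpS19b are shown for comparison, printed as above.
RpS5a, chrX:17148245-17148344, minus strand: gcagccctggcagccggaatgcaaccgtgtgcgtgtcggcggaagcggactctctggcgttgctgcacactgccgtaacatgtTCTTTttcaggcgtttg
RpS5b, chr3R:14901544-14901643, minus strand: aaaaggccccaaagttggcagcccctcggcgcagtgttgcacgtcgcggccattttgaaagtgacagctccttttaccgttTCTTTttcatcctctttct
RpS28b, chrX:9554543-9554642, plus strand: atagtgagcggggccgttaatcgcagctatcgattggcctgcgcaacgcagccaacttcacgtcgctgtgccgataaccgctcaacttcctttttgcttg
RpS28a, chr3R:30022629-30022728, minus strand: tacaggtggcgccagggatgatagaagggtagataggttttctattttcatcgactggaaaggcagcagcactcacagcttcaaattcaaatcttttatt
RpS19a, chrX:16637814-16637913, plus strand: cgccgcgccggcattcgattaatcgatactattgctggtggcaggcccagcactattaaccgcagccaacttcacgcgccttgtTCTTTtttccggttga
RpS19b, chr3R:23933511-23933610, minus strand: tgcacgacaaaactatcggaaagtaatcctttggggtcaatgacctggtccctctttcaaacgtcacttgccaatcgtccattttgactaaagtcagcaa
RpS5a and RpS5b both show the TCT initiator at the 5′ end, while RpS28a, RpS28b and RpS19b do not.

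RpS5a, the broadly expressed copy, ranked 685, 991 and 902. RpS5b, the copy used in the ovary, had no region in replicate 1 and ranked 28035 and 12813 in replicates 2 and 3, so no replicate of RpS5b came near its partner. RpS28b ranked 671, 631 and 467. The rank in replicate 2 came from a summit at -760 bp, and those in replicates 1 and 3 from summits at -57 and -58 bp. RpS28a ranked 17782 and 11556 in replicates 1 and 3 and had no region in replicate 2, and the third copy, RpS28-like, ranked 20542, 20853 and 18965. The RpS28 family was thus split between 1 high copy and 2 low ones in every replicate. RpS10b ranked 858, 389 and 538, and its partner RpS10a ranked 13233, 6892 and 6820. RpL22 ranked 670, 861 and 1164, while RpL22-like, known for its expression in the testis, was the 1 gene of the 88 with no region in any of the 4 ranked lists. RpS15Aa ranked 2103, 2141 and 7008, and RpS15Ab ranked 20668 and 5218 with no region in replicate 3. Here the ranges of the copies overlapped.

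RpL7-like and RpL24-like are grouped with RpL7 and RpL24 by symbol alone. Their yeast relatives assist in building the large subunit. RpL7-like ranked 15583 and 13524 in replicates 2 and 3, with none in replicate 1, and RpL24-like ranked 23676 and 9923 in replicates 1 and 3, with none in replicate 2. Both were far below RpL7 and RpL24. In the families with 2 regions, RpS19a ranked 1016, 689 and 729 and RpS19b ranked 1957, 1087 and 1688. RpS19b owed its rank to the distant summit near CG5854, and no thresholded summit lay at its own start. In the families with no thresholded region, RpL10Ab ranked 1924, 6537 and 8581 and RpL37-1 ranked 12671, 4341 and 9870. RpL10Aa and RpL37-2 each had a region in replicate 3 alone of the replicates, at ranks 23234 and 27002.

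**Figure D4:**
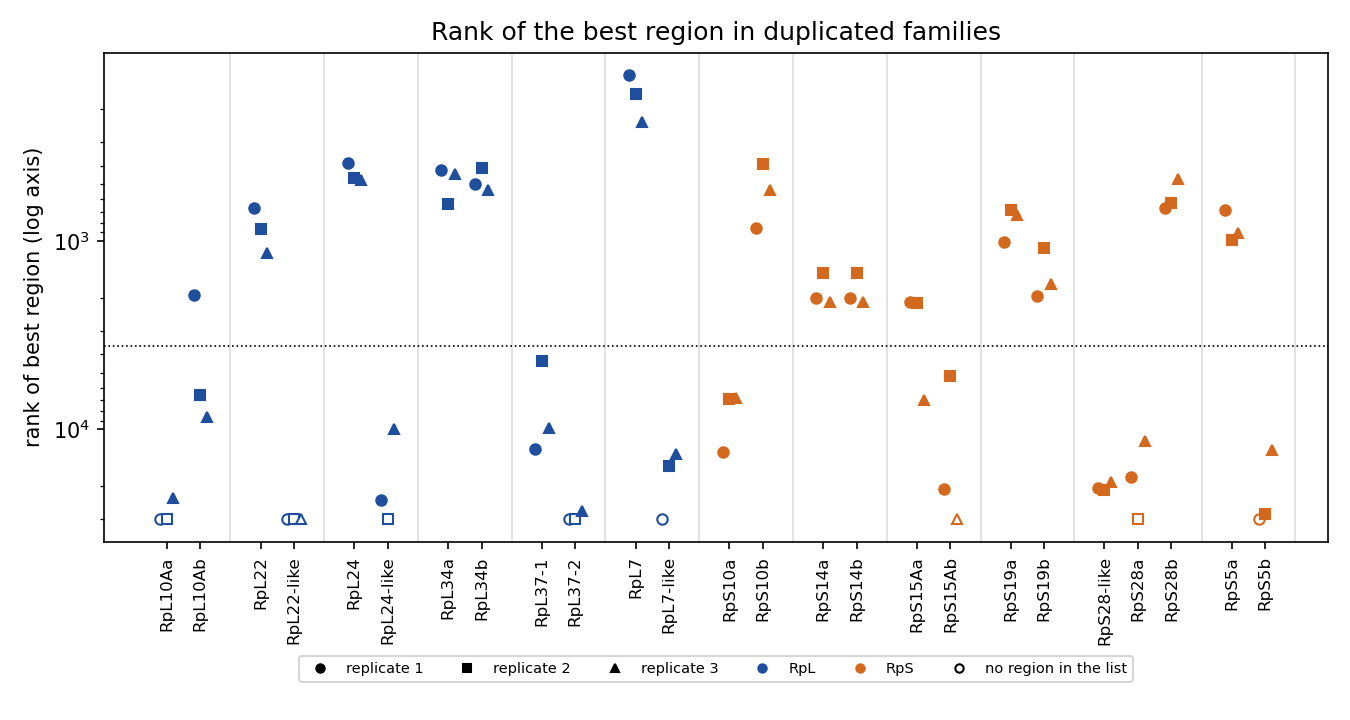
Rank of the best region (log axis, highest signal at the top) for each copy of the 12 duplicated families in replicates 1, 2 and 3; open symbols stand for no region and the dotted line for rank 3612. RpS5a, RpS28b, RpS10b, RpL22, RpL24 and RpL7 stay above the line in every replicate, while RpS5b, RpS28a, RpS10a, RpL22-like, RpL24-like and RpL7-like stay below it.

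Of the 32 genes without a thresholded region, 16 had a weaker one. For 10 it reached a q-value under 5% in the pooled list, among them RpL10Ab, RpL37-1, RpL5, RpS13, RpS2, RpS29, RpS30, RpS6 and RpS9. RpS30, whose protein is made fused to a ubiquitin-like domain, came closest by mean rank, at ranks 3244, 3536 and 7405. RpS6, the phosphorylation target of S6 kinase downstream of TOR, ranked 9759, 7497 and 3832. RpS2 ranked 5564, 2280 and 27445, with summits at -36, 37 and 1178 bp, so replicate 3 stood apart in rank and position. For 6 more, RpL15, RpL29, RpL36A, RpS15, RpS15Ab and RpS26, only a replicate list reached that q-value.

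The other 16 genes reached it in none of the 4 lists. In alphabetical order the first 8 were RpL10, RpL10Aa, RpL21, RpL22-like, RpL24-like, RpL35, RpL37-2 and RpL38. RpL10, whose protein is among the last to join the large subunit, ranked 14209, 7070 and 12026. RpL38, a Minute gene, ranked 8971, 10618 and 19140. RpL21 ranked 16961, 20837 and 11672. None of these 3 genes came within the highest 3612 regions of any replicate, although their proteins belong to the same subunit as RpL7 and RpL28. The remaining 8 were RpL40, RpL6, RpL7-like, RpS10a, RpS24, RpS28-like, RpS28a and RpS5b. Read depth is unknown, so a low rank does not show that Scute-GFP was absent.

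RpS27A and RpL40 make a second kind of pair, since both are translated as a fusion behind ubiquitin. RpS27A ranked 1785, 1843 and 1498, with summits at -41, -73 and -70 bp. RpL40 had a single weak region, at rank 29448 of replicate 2 and -380 bp. Its start carries the TCT initiator all the same.
RpL40, chr2L:4227619-4227718, plus strand: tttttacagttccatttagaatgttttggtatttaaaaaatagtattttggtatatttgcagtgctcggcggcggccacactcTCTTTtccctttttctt

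Promoter motifs were searched from 250 bp before to 50 bp after the 5′ end on both strands, apart from the TCT initiator, which was searched on the gene strand at annotated starts. The TCT initiator was present in 54 of the 88 genes (61.4%) and in 3.31% of all protein-coding genes. The DRE, TATCGATA, was present in 31.8% against 9.36%, and GGTCACAC, the core of Ohler motif 1, in 14.8% against 7.70%. At least one of the 3 was found in 70 genes (79.5%), against 18.8% of all genes. A match is a description of the sequence and not of a bound site.

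Genes with a region were found both with and without each of these motifs. A thresholded region was present at 37 of 54 genes with the TCT initiator (68.5%, interval 55.3 to 79.3%) and at 19 of 34 without (55.9%, interval 39.5 to 71.1%). With the DRE the count was 16 of 28 (57.1%, interval 39.1 to 73.5%) and without it 40 of 60 (66.7%, interval 54.1 to 77.3%). For GGTCACAC the shares were 69.2% of 13 genes and 62.7% of 75. The intervals overlapped in each case, which does not show that the shares are equal. The background over all protein-coding genes, 20.5%, was not split by motif. Genes that host a small nucleolar RNA, a guide for the modification of ribosomal RNA, had a region in 20 of 28 cases (71.4%, interval 52.9 to 84.7%), and the other 60 in 36 (60.0%, interval 47.4 to 71.4%).

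E-boxes were not more frequent at these promoters. The general E-box CANNTG was found in 71.6% of the 88 promoters and in 77.2% of all. CAGCTG, which is included in that pattern, was found in 9.09% against 17.7%. The site of achaete-scute proteins with Daughterless, GCAGCTG or GCAGGTG, was present in 1 of the 88 promoters (1.14%), that of RpS28-like, which had no thresholded region, and in 8.71% of all promoters. GAGAGAG was found in none of the 88 and in 5.87% of all. The control pattern, GACGCTC or GACGGTC, was found in 4.55% against 2.93%, so a gap of that size occurred for letters with no known factor. The control gap was upward, while the E-box gaps were downward and larger in percentage points.

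The sequence around the summits was searched as well. Within 100 bp on each side of the summit, CANNTG was present in 60.4% of the 53 regions at ribosomal protein promoters and in 57.6% of 1011 other promoter regions. GCAGCTG or GCAGGTG was present in 1.89% and 5.24%. The DRE was present in 26.4% and 4.45%, and GGTCACAC in 13.2% and 2.08%. TATAAA was present in 13 of the 53 and in 445 of the 1011. The control pattern was present in 3.77% and 0.593%.

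**Figure D5:**
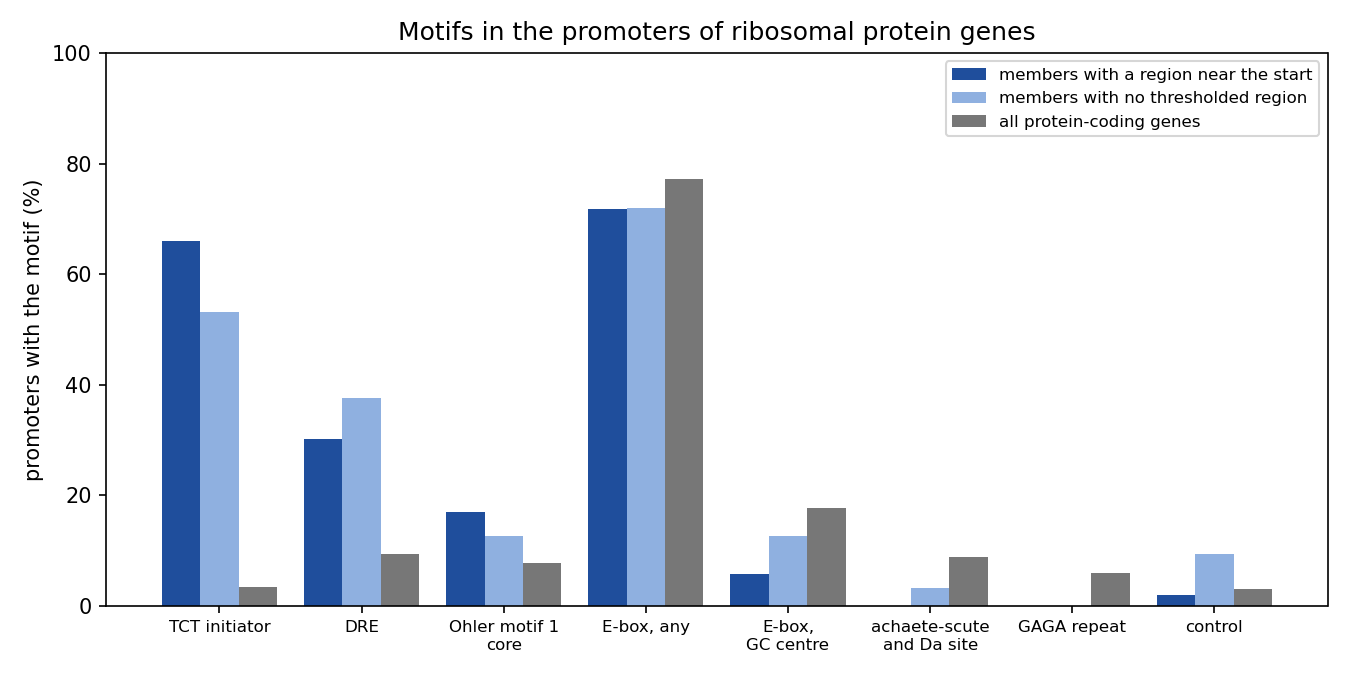
Share of promoters (percent) that hold each motif from 250 bp before to 50 bp after the 5′ end, for 53 ribosomal protein genes with a thresholded summit within 500 bp, 32 with no thresholded region and all 13945 protein-coding genes; E-box with GC centre is CAGCTG. The TCT initiator is present in 66.0%, 53.1% and 3.31%, and the achaete-scute and Daughterless site in 0%, 3.12% and 8.71%.

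Other genes of translation were counted in the same way. Of 73 mitochondrial ribosomal protein genes, whose products form a separate ribosome, 22 had a thresholded region (30.1%, interval 20.8 to 41.4%). None of their best thresholded summits lay within 100 bp of the 5′ end, and the 16 within 500 bp had a median of -136 bp. Among the highest regions of replicates 1, 2 and 3, 4 of 20, 1 of 20 and 1 of 23 of these genes had a summit that close. Over all protein-coding genes with a high region the shares were the 13.6%, 12.3% and 11.1% given above, so replicate 1 alone was higher for the mitochondrial set. Of the mitochondrial set, 51 of 73 genes (69.9%) have a divergent partner, against 3483 of 13945 protein-coding genes. Initiation factor genes had a region in 9 of 44 cases (20.5%), equal to the background over all genes. Elongation and release factor genes had one in 6 of 10 cases, with 4 summits within 100 bp. Of 25 ribosome biogenesis genes found by name, 9 had a region and none had its best summit within 100 bp.

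The acidic stalk proteins and other ribosomal proteins named outside the symbol rule were mixed. RpLP0, the base of the stalk that recruits elongation factors, ranked 407, 445 and 446, with summits at 195, 180 and 187 bp. Its thresholded summit lay at -39 bp from another annotated start of the gene. RpLP1 ranked 1066, 1160 and 972, with summits at -17, -59 and -58 bp. sta, the small subunit protein also known as the laminin receptor, ranked 2439, 1652 and 3025. RpLP2, which pairs with RpLP1 in the stalk, ranked 3580, 4839 and 4630 and had no thresholded region. RpLP0-like had none either, at ranks 5139, 6112 and 5362.

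The genes with a region were spread over all arms analysed. They were 9 of 18 on 2L, 11 of 19 on 2R, 9 of 13 on 3L, 15 of 23 on 3R, 11 of 14 on X and the single member on chromosome 4, RpS3A. The X share, 78.6%, has an interval from 52.4 to 92.4%, which contains the share over the whole set. The background over all protein-coding genes, 20.5%, was not split by arm, so the arms cannot be compared from these counts.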

How the data were processed

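ChIP-seq of Scute-GFP was deposited for 3 biological replicates of 1 group, with region lists on the dm6 and dm3 assemblies; only dm6 was used. The lists per replicate, the pooled list and the list thresholded by irreproducible discovery rate are the authors', per the labels and the file headers. The deposited signal of each region, which is comparable only within its list, gave the ranks, and the deposited −log10 q-value, read by the format's column layout, gave the calls under 5%. The sources used here do not give the aligner, the peak caller or the mapping filters. Intervals (95% Wilson) cover counting error over genes only, because the depth in reads is unknown.

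Each summit was assigned to every Ensembl release 115 gene whose body or 2 kb upstream held it, and the highest-signal region was kept. Regions of a replicate matched a thresholded region within 250 bp. Assignment was tested on simulated data. Replicates were compared with exact two-sided sign-flip permutations. The members, lists and tests were chosen with earlier results of these data known. Named genes were the 15 with the lowest mean rank, all duplicated families, the first 8 without a call under 5%, those with the 6 farthest best summits, those nearer another start, RpS27A, RpL40 and 5 ribosomal proteins outside the symbol rule; others were chosen after their values were seen. A few genes that the rule names are not reported here, though the counts include them. Sequences came from the Release 6 genome. Python 3.11.15, numpy 2.4.6, scipy 1.17.1 and matplotlib 3.10.9 were used.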

Additional observations from a re-analysis of the deposited data

How the results depend on the processing

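The count of 56 genes with a thresholded region became 18 with gene bodies only, and it stayed within 1.5 times, between 44 and 66, with 5 kb upstream, within 500 bp of the 5′ end, with the 1806 regions of highest signal and with pooled regions of a q-value under 5%. Requiring the region in 2 of the replicates, each left out in turn, gave 50 to 51. The 47 genes with a region in all 3 replicates became 46 and 48 with matching at 100 and 500 bp. The gap in share between RpL and RpS genes, 4.60 points, reversed to -2.14 with regions of a q-value under 5%; it was 2.53 to 5.79 with a replicate left out, 9.60 with 1 gene per duplicated family, 9.86 within 500 bp of the 5′ end and 12.1 with the highest 500 regions, which was chosen after seeing the data. The gap in position, 16.7 bp, reversed to -12.7 with gene bodies only and to -9.83 with the 1806 highest regions; it was 15 to 19.5 with a replicate left out, 6.17 within 500 bp, 8 with 5 kb upstream and 186 with the mean in place of the median. The causes were not tested. The gap between ribosomal protein genes and all genes, 43.2 points, was 42.0 to 44.8 with a replicate left out and 11.6 with gene bodies only. No p fell below 0.25 in any setting, and with 2 replicates the smallest possible is 0.50. No paired analysis was possible because there is a single group with no second one to pair by replicate number; the sign-flip tests take differences between gene sets within each replicate. Depth is unknown, so low ranks cannot be told from few reads.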

Other observations

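A run of letters recurred near the start of several of these genes, and it was noticed after the sequences had been seen. The run CGCAGCCAACTTC, 13 bases long and on the gene strand in each case, was present in the promoters of 5 ribosomal protein genes, RpL27A, RpL28, RpS19a, RpS21 and RpS28b. All 5 had a thresholded region. It was present in 9 of the 13945 promoters in all (0.0645%). In RpL28 it is at chr3L:3222980-3222992 and begins at -32 bp, and the summit lay 26 bp upstream of its middle (-26 bp). In RpS28b, at chrX:9554589-9554601, it begins at -34 bp and the summit lay at -16 bp from it. In RpS19a it begins at -20 bp, in RpS21 at 13 bp and in RpL27A at 33 bp, with summits at -19, -46 and 12 bp from it. The 4 other promoters that hold it are those of Hasp, Iswi, CG30122 and Kap-alpha3, and of these only Kap-alpha3 had a thresholded region in its territory, with a summit at -82 bp from the run. The run can be read in the printed starts of RpL28, RpS19a and RpS28b. No factor is assigned to these letters here, and the share of genes with a region was not tested, since the run was picked from the members themselves.

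Other genes of translation were chosen after their values were seen. Of these, eIF2Bbeta, eIF4EHP and mRpS10 ranked above the cytoplasmic ribosomal protein genes in every replicate, as did mRpS23, mRpL41 and mRpL23. eIF2Bbeta, a subunit of the exchange factor of eIF2, had ranks of 5, 7 and 3 with its best thresholded summit at -681 bp. eIF4EHP, a cap-binding repressor of translation, had ranks of 54, 81 and 68 with a summit at -233 bp. mRpS10, of the mitochondrial ribosome, had ranks of 10, 21 and 8 with a summit at -134 bp. Also of the mitochondrial ribosome, mRpS23 ranked 42, 28 and 20, mRpL41 ranked 40, 31 and 31, and mRpL23 ranked 69, 110 and 69. Their summits lay at -384, -133 and 117 bp. All of these summits lay more than 100 bp from the start. Among the highest 250 regions of the pooled list and of each replicate, 6.85% of mitochondrial ribosomal protein genes had a summit. eEF1gamma, a subunit of elongation factor 1, ranked 196, 459 and 342 with a summit at -74 bp. It stood below RpS27 and RpL7 in every replicate. eIF6, which keeps the subunits apart, ranked 159, 156 and 181 with a summit at -117 bp. It stood above RpS27 in replicate 3 only.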
